A study of Homo sapiens with 12 samples.

Results

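The genes of DNA replication and S phase were followed through 12 libraries of human kidney-derived cells. They are 47 genes chosen by symbol from the 23500 entries of the count table, which hold 19822 distinct symbols, with 1 entry per symbol. They fall into 16 genes of origin licensing and the replicative helicase, 19 of the polymerases, the sliding clamp and its loader, 5 of E2F and cyclin E, and 7 of chromatin assembly, the fork checkpoint and repair. All 47 passed the filter on low counts and were tested.

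RNA was sequenced from HEK293T, a human embryonic kidney line that expresses the SV40 large T antigen, and from R1, a clone derived from it that keeps growing when methionine is replaced by homocysteine. Both lines were kept for 12 h in medium with methionine (+Met) or in medium in which its precursor homocysteine took its place (−Met+Hcy), and each of the 4 groups has 3 libraries. R1 is 1 clone, and its libraries carry HEK293T as their cell line label. Large T inactivates the retinoblastoma proteins, which hold E2F in check, and both lines carry it. The RNA comes from whole cultures, so a change in the share of cells in S phase and a change in RNA per S-phase cell cannot be told apart.

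Replication starts from origins that are licensed in G1, when ORC, CDC6 and CDT1 load the MCM2-7 ring onto DNA. Cyclin E with CDK2 and the kinase DDK then bring CDC45 and GINS to the ring, which becomes the active helicase, and the polymerases, PCNA and its loader RFC follow. Many of these genes are transcribed late in G1 by E2F factors, which bind a short GC-rich word near the start of transcription.

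The promoters of the genes hold this word often. RefSeq promoter sequences (GRCh38.p14, 250 bases before to 50 bases after the annotated start) were matched for 38 of the 47 genes. MCM4, MCM5, GINS4, DSCC1, POLD3, RPA2, RPA3, CCNE2 and CDK2 had no match. The 4 words TTTGGCGC, TTTCCCGC, TTTCGCGC and TTTGCCGC, searched on both strands, stood in 20 of these 38 promoters (52.6%). Of all 35116 promoters in the table, noncoding genes included, 1164 held one (3.31%). A match describes the letters and not a bound site, and base composition was not matched between the sets. The CCAAT word stood in 55.3% of the 38 promoters and in 34.6% of all.

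The 250 bases before the start are shown for MCM6, PCNA, POLA2 and E2F1, which had negative fold changes in HEK293T cells in −Met+Hcy, and for FEN1, which had a positive one, since they show how the word is placed. Capitals mark the 4 words on either strand. In MCM6 a TTTGGCGC and a reversed TTTCGCGC overlap at 2 places. The windows are chr2:135876444-135876693 on the minus strand for MCM6, chr20:5126623-5126872 on the minus strand for PCNA, chr11:65261712-65261961 on the plus strand for POLA2, chr20:33686386-33686635 on the minus strand for E2F1 and chr11:61792661-61792910 on the plus strand for FEN1.
MCM6: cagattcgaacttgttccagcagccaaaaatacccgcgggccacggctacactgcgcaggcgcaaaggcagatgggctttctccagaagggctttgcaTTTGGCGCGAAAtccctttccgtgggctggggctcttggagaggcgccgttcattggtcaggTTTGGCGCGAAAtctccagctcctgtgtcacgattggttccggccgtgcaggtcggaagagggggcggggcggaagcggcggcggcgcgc
PCNA: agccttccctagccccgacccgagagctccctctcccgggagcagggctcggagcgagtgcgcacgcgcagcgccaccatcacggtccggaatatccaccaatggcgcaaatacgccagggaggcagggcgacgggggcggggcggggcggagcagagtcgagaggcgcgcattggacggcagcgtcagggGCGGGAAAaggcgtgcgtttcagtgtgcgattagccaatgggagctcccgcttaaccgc
POLA2: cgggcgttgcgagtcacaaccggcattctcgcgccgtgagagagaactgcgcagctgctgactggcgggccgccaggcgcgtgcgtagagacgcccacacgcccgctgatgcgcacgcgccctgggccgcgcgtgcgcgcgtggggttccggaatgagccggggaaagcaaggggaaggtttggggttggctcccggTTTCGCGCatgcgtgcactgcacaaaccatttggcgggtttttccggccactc
E2F1: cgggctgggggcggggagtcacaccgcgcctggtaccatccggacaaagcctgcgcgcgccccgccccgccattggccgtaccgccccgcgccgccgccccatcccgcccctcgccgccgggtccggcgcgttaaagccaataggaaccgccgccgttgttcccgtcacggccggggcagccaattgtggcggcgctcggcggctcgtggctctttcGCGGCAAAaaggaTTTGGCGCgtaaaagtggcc
FEN1: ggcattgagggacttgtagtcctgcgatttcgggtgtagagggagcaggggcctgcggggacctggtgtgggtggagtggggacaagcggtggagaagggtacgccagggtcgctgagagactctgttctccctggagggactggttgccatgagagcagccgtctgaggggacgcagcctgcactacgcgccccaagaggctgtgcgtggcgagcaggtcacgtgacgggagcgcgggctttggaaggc

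MCM6 and E2F1 carry more than one match, PCNA and POLA2 carry 1, and none of the 4 words is in the FEN1 window. Among the 38 genes, the 20 with a match had a median of −0.40 for the log2 change between media in HEK293T, and the 18 without had 0.04. In R1 the medians were −0.12 and 0.05. The medians of both lines come from the fit with all 12 libraries, R1 −Met+Hcy replicate 3 included. These are descriptions, and the split was not tested. Among the genes that passed with R1 −Met+Hcy replicate 3 left out, as described below, the 3 that rose were split, since GINS3 and EXO1 hold it and FEN1 does not. Of the 8 that fell and had a matched promoter 6 hold it, and CDC45 and POLD1 do not.

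Total counts ran from 12664158 to 18771349 per library, with a median of 15588478. R1 −Met+Hcy replicate 3 stood apart from the other libraries. Its differences from the 2 other libraries of its group followed GC content over all genes (Spearman −0.744) and over the 47 genes (Spearman −0.86, with transcripts of 34.63% to 64.76% GC, all read from the same library). Against the mean of replicates 1 and 2, its level was 0.0752-fold for POLA2, 0.0899-fold for POLD1 and 0.176-fold for CDT1, and 3.41-fold for POLE2 and 3.33-fold for CCNE2. R1 +Met replicate 2 differed as well: across the 47 genes its distance from the other 2 libraries fell with transcript length (Spearman −0.67) and with GC content (Spearman −0.42). HEK293T −Met+Hcy replicate 3 minus replicate 1 also fell with transcript length (Spearman −0.67). Weaker GC trends over all genes were seen in the HEK293T libraries, from −0.29 in −Met+Hcy replicate 3 to 0.537 in +Met replicate 1 (Spearman). In R1 +Met they ran from −0.338 to 0.456. Of the HEK293T markers, VIM was at 305 to 834 CPM (counts scaled to the same library total), NEFL at 45.7 to 92.6, LIN28B at 15.7 to 33.3, NEFM at 7.61 to 72.5 and PAX2 at 0.205 to 6.06. Of the 10 markers of other cells, the keratins KRT5 and KRT14 were at 0 in every library, KRT17, COL1A2, PDGFRB, CD3E and PTPRC stayed under 1 CPM, and CD68 reached 3.08, EGFR 19.1 and COL1A1 39.8. Results are therefore given from all 12 libraries and again with R1 −Met+Hcy replicate 3 left out, also where its group is not compared, since it widens the spread that all groups share (common dispersion 0.109 with it, 0.0349 without).

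**Figure D1:**
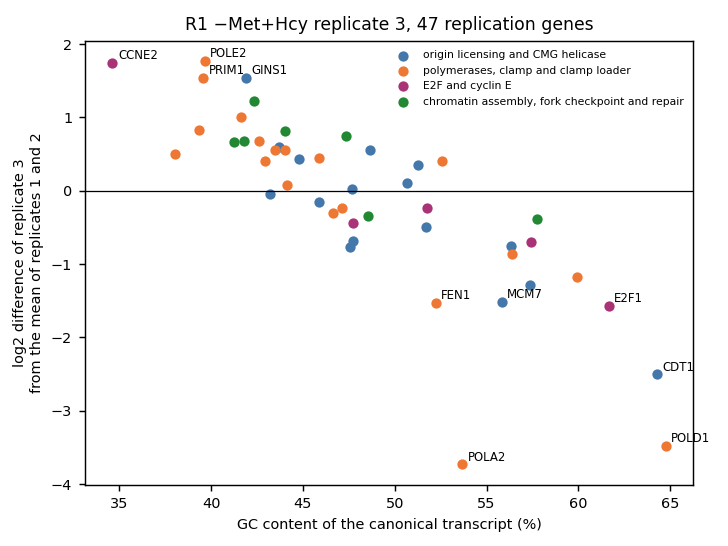
Log2 difference of R1 −Met+Hcy replicate 3 from the mean of replicates 1 and 2 (vertical axis) against the GC content of each gene's canonical transcript in percent (horizontal axis), for the 47 genes coloured by role. GC-poor genes such as CCNE2 and POLE2 lie above 0 and GC-rich genes such as POLD1 and CDT1 below, with a Spearman correlation of −0.86.

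Together the 47 genes held 6820 ± 338 CPM in HEK293T +Met, 7260 ± 234 in HEK293T −Met+Hcy, 7500 ± 204 in R1 +Met and 6950 ± 667 in R1 −Met+Hcy (SD, n = 3). In CPM from column sums the groups overlapped except that every R1 +Met library lay above every HEK293T +Met library. On TMM-scaled CPM, which the tests below use, the order was the reverse, with sums of 7810 to 8180 in HEK293T +Met above 6870 to 7050 in HEK293T −Met+Hcy, 6890 to 6980 in R1 +Met and 6490 to 6660 in R1 −Met+Hcy. Levels are given as CPM from the column sums, and between genes as CPM per kb of transcript. In HEK293T cells in +Met the clamp PCNA was the highest of its role, with 432 CPM per kb. Within the MCM2-7 ring, whose 6 subunits are present in equal numbers, MCM7 was highest with 250 CPM per kb and MCM6 lowest with 76.8, a ratio of 3.26. The 4 GINS subunits spread more widely, from 9.46 CPM per kb for GINS4 to 88.2 for GINS2. Of the RFC loader, RFC1 had 17.5 and RFC4 80.6 CPM per kb, and of the single-strand binding trimer RPA, RPA1 had 36.2 and RPA2 87.2. MCM7 was the highest MCM subunit and GINS2 the highest GINS subunit in each of the 4 groups. E2F2, read from 1 of its 2 entries, was the lowest of the E2F and cyclin E genes, at 1.11 CPM per kb. E2F1 had 22.8 and CDK2 42.0. RNA levels say nothing of the protein amounts.

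**Figure D2:**
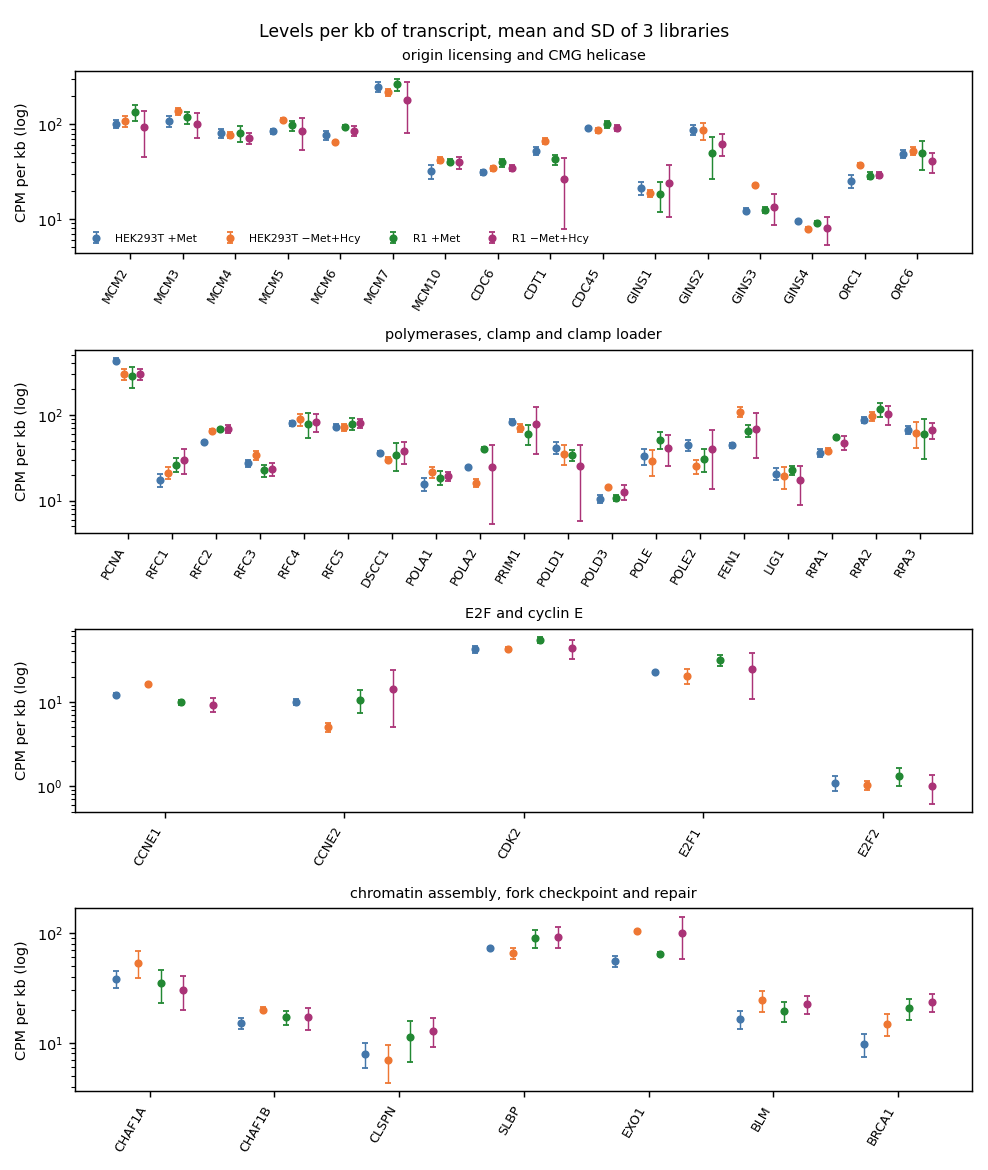
CPM per kb of transcript on a log axis for the 47 genes, one panel per role, with the mean and SD of 3 libraries in each of the 4 groups. MCM7 and PCNA lead their panels, E2F2 lies lowest in its own, and the widest bars are those of R1 −Met+Hcy for POLA2, POLD1 and CDT1.

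In HEK293T cells, the question was how the parental line, which stops growing in −Met+Hcy, changed its replication genes after 12 h. Most of them were lower against the other genes: 30 of 47 had a negative log2 fold change (63.8%, beside 47.5% of all genes tested) and 17 a positive one (36.2%, beside 51.9%), and their median was −0.21 beside 0.03 for all 17162 genes. Few passed the test. With edgeR's quasi-likelihood test and Benjamini-Hochberg adjustment, 0 rose and 1 fell, MCM6, while 4.25% of all genes rose and 2.78% fell. At an unadjusted p under 0.05, 3 were higher (beside 12.9% of all genes) and 6 lower (beside 9.49%), and DESeq2 called 2 higher (beside 7.52%) and 4 lower (beside 5.52%). None passed with an absolute log2 fold change over 1 as well, which 3.04% of all genes did upward and 1.59% downward. With R1 −Met+Hcy replicate 3 left out, 3 rose (6.38%, beside 15.2% of all genes) and 10 fell (21.3%, beside 12.5%). The fold changes of HEK293T are nearly the same in both fits, and the standard errors are smaller in the latter.

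These counts depend on the scale. TMM scaling, which the model uses, sets the bulk of genes near 0, whereas column sums alone raise the median of all genes by 0.295 on the log2 scale in this comparison. On column sums the members' median was 0.08 beside 0.33 for all genes, so the distance between them was −0.25 on either scale. On column sums 4 rose (8.51%, beside 10.4% of all genes) and 0 fell (beside 1.24%) by the same test. The signs of 8 of the 47 genes turned between the scales, and those of the 13 genes that passed with R1 −Met+Hcy replicate 3 left out did not. Fold changes below are on the TMM scale and library values in CPM from column sums.

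**Figure D3:**
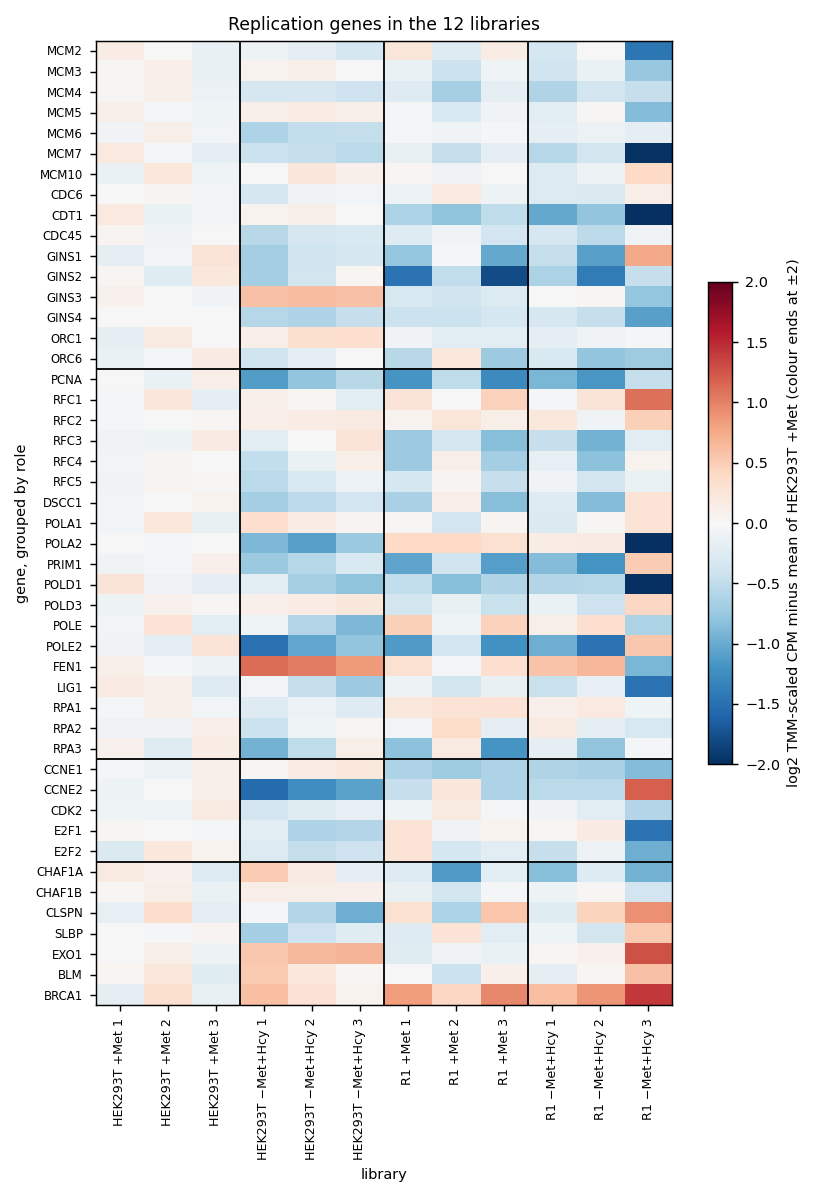
Log2 TMM-scaled CPM of the 47 genes (vertical axis, by role) in the 12 libraries (horizontal axis), as the difference from the mean of HEK293T +Met. FEN1, GINS3 and EXO1 are high and CCNE2, POLE2, POLA2, PCNA and MCM6 low in the 3 HEK293T −Met+Hcy libraries, and R1 −Met+Hcy replicate 3 differs from its neighbours.

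Of the origin and helicase genes, MCM6, a subunit of the ring (Ensembl ENSG00000076003, chr2:135839626-135876443, minus strand), fell. Its levels in HEK293T cells were 269, 324 and 272 CPM in +Met and 239, 252 and 241 CPM in −Met+Hcy. Every −Met+Hcy library was below every +Met library. The mean went from 288 ± 31.4 to 244 ± 7.01 CPM (SD, n = 3), which by column sums is a log2 fold change of −0.24 ± 0.15 (SE; edgeR, adjusted p = 0.348). On the TMM scale it was −0.53 ± 0.15 (SE; edgeR, adjusted p = 0.0490). The call holds in 12 of 26 alternatives, with adjusted p from 1.6e-08 to 0.348. Leaving out any HEK293T library gave 0.125 to 0.168 by edgeR, R1 +Met replicate 1 or 3 gave 0.0871 and 0.0719, and R1 −Met+Hcy replicate 1 or 2 gave 0.0577 and 0.0525. Without R1 −Met+Hcy replicate 3 the adjusted p by edgeR was 0.00589.

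With that library left out, GINS4 (−0.55), MCM7 (−0.49) and CDC45 (−0.39), which belong to the helicase or bring it to activity, fell as well, and GINS3 rose. GINS3, another subunit of the same GINS tetramer as GINS4, read 27.8, 27.9 and 25.1 CPM in +Met and 51.8, 50.4 and 47.4 CPM in −Met+Hcy. GINS4 read 34.7, 37.2 and 35.1 CPM in +Met and 30.6, 28.5 and 30.5 CPM in −Met+Hcy. The groups overlapped for neither gene, and the 2 subunits lay in opposite directions. GINS3 had a log2 fold change of 0.59 ± 0.11 (SE; edgeR, adjusted p = 0.00182 without R1 −Met+Hcy replicate 3, 0.109 with it). Of the 16 genes of the role, 6 had a positive and 10 a negative fold change, with a median of −0.20. MCM3 (0.06), MCM5 (0.12), the loader CDT1 (0.06) and the origin subunit ORC1 (0.26) were among those that did not pass in either fit.

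Of the polymerase, clamp and loader genes, 0 passed with all libraries. PCNA, the sliding clamp, read 539, 523 and 591 CPM in +Met and 324, 389 and 440 CPM in −Met+Hcy. All 3 −Met+Hcy libraries were below the lowest +Met library. Its log2 fold change was −0.81 ± 0.21 (SE; edgeR, adjusted p = 0.0140 without R1 −Met+Hcy replicate 3, 0.0792 with it).

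POLE2, the second subunit of polymerase epsilon, read 69.0, 67.4 and 87.3 CPM in +Met and 33.8, 44.4 and 50.1 CPM in −Met+Hcy, or −1.09 on the log2 TMM scale. POLA2, the regulatory subunit of polymerase alpha, read 86.4, 89.9 and 86.2 CPM in +Met and 60.4, 50.8 and 61.1 CPM in −Met+Hcy, or −0.90 on that scale. Neither gene had overlapping groups, and both fell with R1 −Met+Hcy replicate 3 left out (edgeR, adjusted p = 0.00660 and 0.000279). Of the catalytic subunits of the same enzymes, POLA1 had a log2 fold change of 0.18 and POLE one of −0.50, and neither passed in either fit. POLD1, the catalytic subunit of polymerase delta, fell by 0.55 on the log2 scale with R1 −Met+Hcy replicate 3 left out (edgeR, adjusted p = 0.0381).

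FEN1, the nuclease that trims Okazaki fragments, went the other way. It read 94.9, 91.4 and 82.1 CPM in +Met and 249, 224 and 188 CPM in −Met+Hcy. The groups were far from overlapping, and the log2 fold change was 1.00 ± 0.14 (SE; edgeR, adjusted p = 0.000370 without R1 −Met+Hcy replicate 3, 0.0838 with it). On column sums with all 12 libraries it was 1.30 and passed (edgeR, adjusted p = 0.0386). FEN1 overlaps FADS2 on the same strand. The ligase LIG1, which joins the trimmed fragments, had a log2 fold change of −0.40 and passed in neither fit. The 5 RFC subunits lay between −0.31 and 0.15 and none passed in either fit. Of the 19 genes, 5 had a positive and 14 a negative fold change, with a median of −0.31.

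The 5 genes of E2F and cyclin E act at the entry into S phase. CCNE2, the second cyclin E, read 24.3, 27.9 and 28.1 CPM in +Met and 11.7, 13.9 and 14.9 CPM in −Met+Hcy. CCNE1, its paralogue, read 23.0, 23.1 and 25.3 CPM in +Met and 31.3, 32.4 and 32.4 CPM in −Met+Hcy. In column-sum CPM neither gene's groups overlapped, and CCNE2 lay lower and CCNE1 higher in −Met+Hcy.

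On the TMM scale CCNE2 changed by −1.28 ± 0.21 (SE; edgeR, adjusted p = 0.000929 without R1 −Met+Hcy replicate 3, 0.0943 with it). CCNE1 had a log2 fold change of 0.14 that passed in neither fit. In TMM-scaled CPM the CCNE1 groups overlapped, at 27.7, 26.2 and 30.3 in +Met and 28.9, 31.2 and 32.6 in −Met+Hcy. CDK2, the kinase both cyclins activate, read 86.6, 91.4 and 104 CPM in +Met and 92.1, 97.2 and 98.6 CPM in −Met+Hcy. E2F1, an activator of S phase genes, read 61.3, 63.4 and 59.6 CPM in +Met and 67.6, 48.9 and 47.9 CPM in −Met+Hcy. For both, the groups overlapped in CPM. The log2 fold change of CDK2 was −0.26 on the TMM scale and 0.03 on column sums, and it passed on neither. E2F1 fell by 0.46 on the log2 scale (edgeR, adjusted p = 0.0297 without R1 −Met+Hcy replicate 3, 0.433 with it). E2F2 was at 4.51 to 6.85 CPM in +Met and 4.99 to 6.03 CPM in −Met+Hcy. Its 2 entries in the table hold identical counts. Only 1 was used, so the counts of the other are not in its level.

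**Figure D4:**
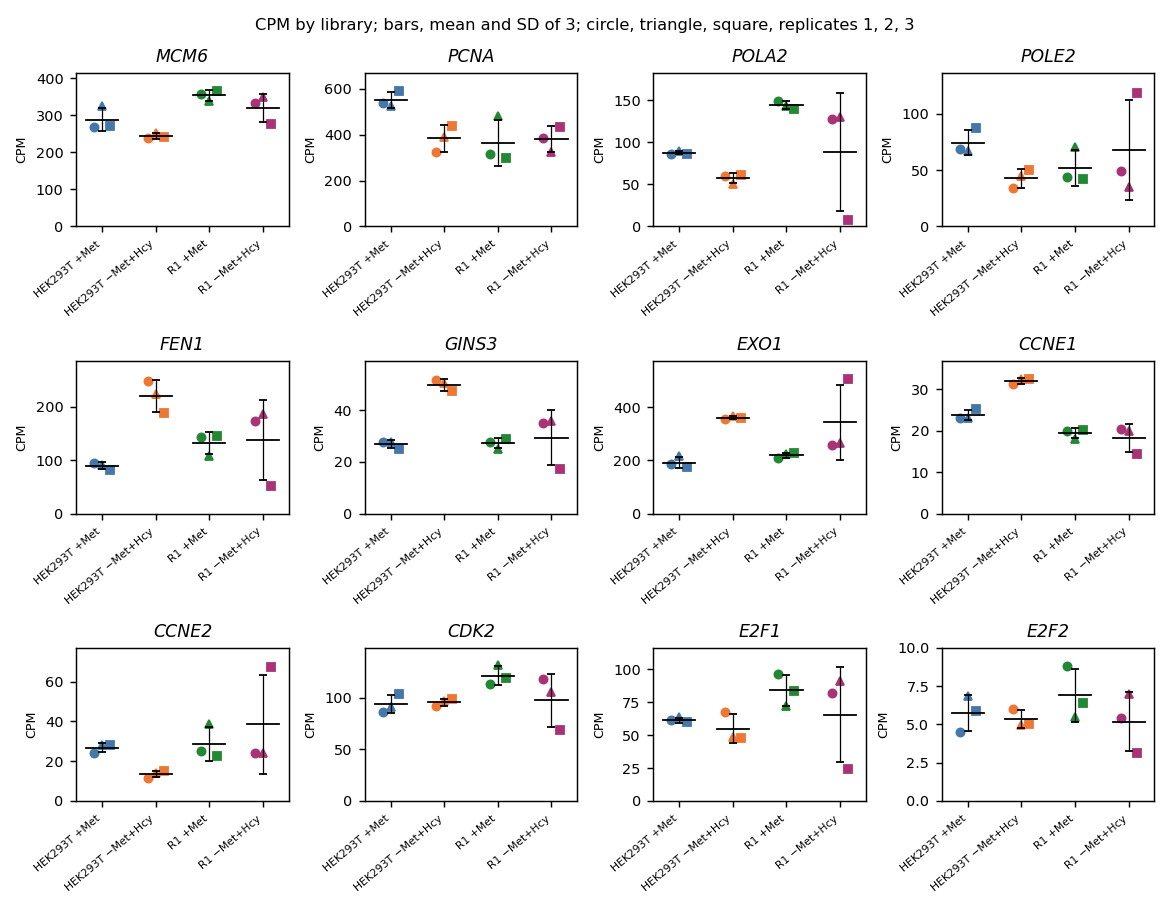
CPM from column sums for 12 of the genes in each of the 12 libraries, with the mean and SD of each group and a marker shape for each replicate number. CCNE2 is lower and CCNE1 higher in HEK293T −Met+Hcy than in HEK293T +Met, though the CCNE1 groups overlap in TMM-scaled CPM. FEN1, GINS3 and EXO1 are higher in HEK293T −Met+Hcy. R1 −Met+Hcy replicate 3 (square) lies apart for POLA2, POLE2, CCNE2 and EXO1.

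Of the 7 genes of chromatin assembly, checkpoint and repair, 5 had a positive and 2 a negative fold change, and the role's median of 0.18 lay above that of all genes. EXO1, an exonuclease of mismatch repair and fork processing, read 185, 215 and 174 CPM in +Met and 354, 368 and 360 CPM in −Met+Hcy. The −Met+Hcy libraries were all above the +Met libraries, with a log2 fold change of 0.62 ± 0.12 (SE; edgeR, adjusted p = 0.00263 without R1 −Met+Hcy replicate 3, 0.218 with it). CLSPN, the mediator of the ATR checkpoint at forks, had −0.50, and SLBP, which binds the stem-loop of histone RNAs, had −0.44. Neither passed in either fit, nor did CHAF1A, CHAF1B, BLM and BRCA1, which lay between 0.12 and 0.32.

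Counted by libraries, 18 of the 47 genes had all 3 TMM-scaled −Met+Hcy values below all 3 +Met values (38.3%, beside 20.6% of all genes), and 5 had them above (10.6%, beside 24.8%). In column-sum CPM the counts were 8 lower (17.0%, beside 9.80%) and 14 higher (29.8%, beside 38.6%). The 8 genes that were lower on both scales were MCM6, CDC45, GINS4, PCNA, DSCC1, POLA2, POLE2 and CCNE2, and the 5 that were higher on both were FEN1, GINS3, EXO1, POLD3 and RFC2. An exact permutation test of 3 against 3 libraries cannot go below p = 0.1.

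In R1 cells, the same change of medium was measured in a line that keeps growing. By edgeR with all libraries 0 of the 47 genes rose and 0 fell, beside 0.00583% and 0.0% of all genes. At an unadjusted p under 0.05, 1 was higher (EXO1, beside 5.68% of all genes) and 0 lower (beside 2.11%), and DESeq2 on the 12 libraries called 0 (beside 0.192% higher and 0.0408% lower). The median of the 47 genes was 0.04 beside −0.02 for all genes, with 25 positive (beside 48.1% of all genes) and 22 negative fold changes (beside 51.3%). Once R1 −Met+Hcy replicate 3 was left out the median was −0.07, with 14 positive (29.8%, beside 50.6% of all genes) and 33 negative fold changes (70.2%, beside 48.8%). In that fit 0 passed in either direction by edgeR (beside 0.0176% upward and 0.0% downward) and 0 by DESeq2 (beside 0.264% and 0.105%). At an unadjusted p under 0.05, 2 were higher (beside 4.48%) and 0 lower (beside 2.58%).

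EXO1 read 209, 225 and 226 CPM in +Met and 256, 266 and 506 CPM in −Met+Hcy. The highest value is that of R1 −Met+Hcy replicate 3, and without it the log2 fold change was 0.20 in place of 0.73 (edgeR, adjusted p = 0.842 and 0.622). MCM2, a subunit of the ring, read 532, 361 and 499 CPM in +Met and 359, 458 and 139 CPM in −Met+Hcy. MCM7 read 718, 546 and 695 CPM in +Met and 539, 625 and 170 CPM in −Met+Hcy. For both MCM genes the lowest value is again that of replicate 3, and the fold changes of −0.54 and −0.56 became −0.22 and −0.21 without it.

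With replicate 3 left out, 3 genes had both R1 −Met+Hcy libraries above all R1 +Met libraries (6.38%, beside 12.0% of all genes on TMM-scaled values and 14.2% on column sums). On either scale they were EXO1, FEN1 and GINS3. Lower without overlap were 5 genes on TMM-scaled values (beside 8.84%) and 2 on column sums (beside 6.79%), CDC6 and POLA2 on both. FEN1 in R1 cells read 143, 108 and 146 CPM in +Met and 174, 187 and 52.0 CPM in −Met+Hcy. GINS3 read 27.8, 25.2 and 29.0 CPM in +Met and 35.1, 35.9 and 17.3 CPM in −Met+Hcy. Without replicate 3 their fold changes were 0.41 and 0.34, and neither passed (edgeR, adjusted p = 0.606 and 0.576).

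**Figure D5:**
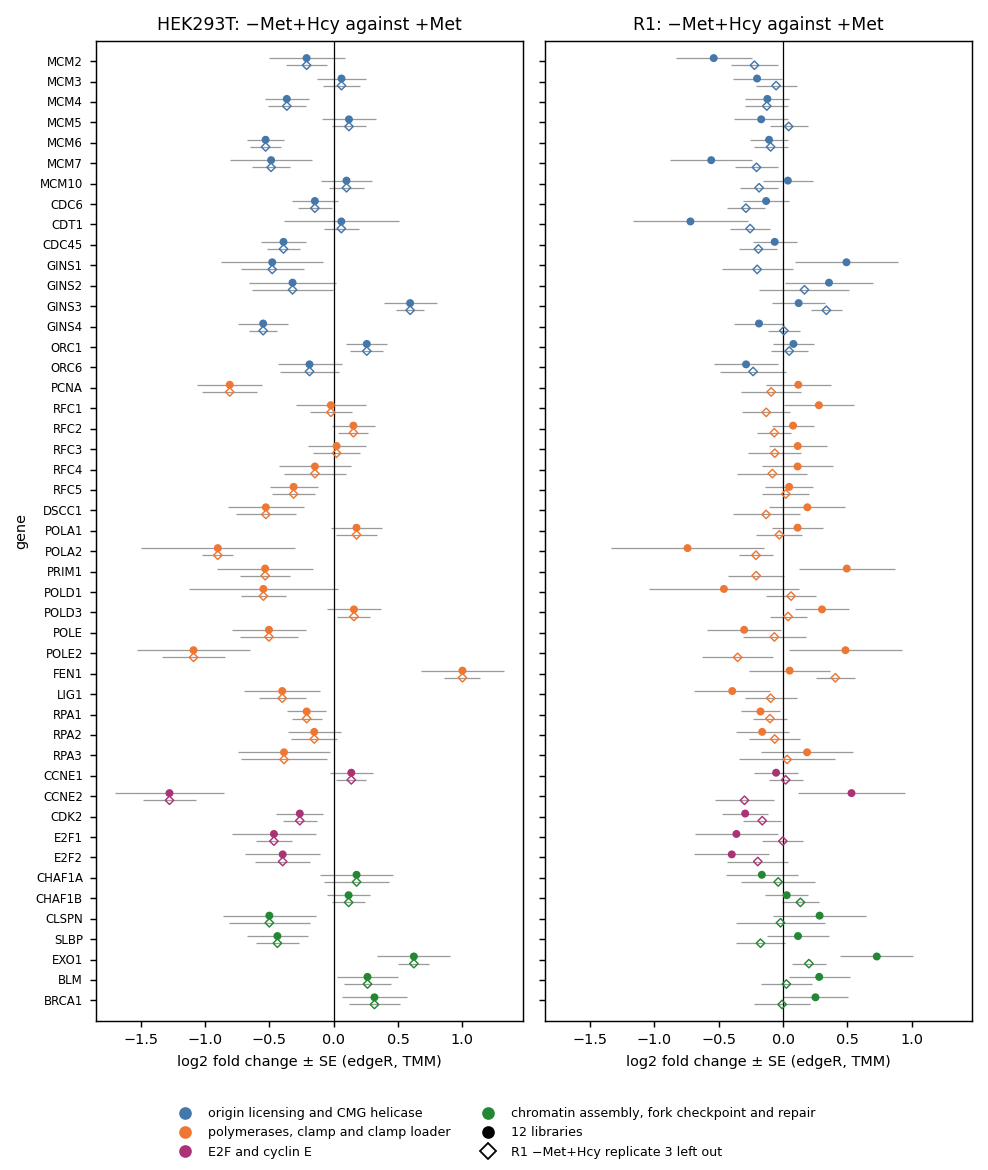
Log2 fold change of −Met+Hcy against +Met with its standard error (horizontal axis) for the 47 genes (vertical axis) in HEK293T cells (left) and R1 cells (right), from all 12 libraries (filled) and with R1 −Met+Hcy replicate 3 left out (open). In HEK293T cells the filled and open points coincide and only the errors shrink, whereas in R1 cells points such as CCNE2, POLE2, EXO1 and POLA2 shift.

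Whether the responses of the lines differ was tested directly, as R1 minus HEK293T. No gene of the 47 passed in either direction by edgeR (0.0% higher and 0.0583% lower across all genes). At an unadjusted p under 0.05, 3 were higher (beside 4.62% of all genes) and 0 lower (beside 5.05%), and DESeq2 on the 12 libraries called 0 (beside 0.524% and 0.903%). The difference was positive in 28 genes (beside 46.6%) and negative in 19 (beside 53.4%). The 3 were CCNE2 at 1.81 ± 0.59, POLE2 at 1.58 ± 0.62 and PCNA at 0.93 ± 0.36 (log2, SE). Without R1 −Met+Hcy replicate 3 these differences were 0.98, 0.74 and 0.72 (edgeR, adjusted p = 0.124, 0.343 and 0.279), and 0 of the 47 passed (beside 0.398% upward and 1.29% downward of all genes), with 7 higher (14.9%, beside 7.29%) and 2 lower (4.26%, beside 9.27%) at an unadjusted p under 0.05. DESeq2 without that library called 3 higher (6.38%, beside 2.51%) and 0 lower (beside 3.5%). CCNE2, POLE2 and PCNA were not among the genes it called. Groups in opposite directions in the 2 lines were also counted on TMM-scaled CPM, with all 12 libraries. Such groups, without overlap in either line, were seen for 0 of the 47 genes and for 0.507% of all.

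In +Met, R1 was compared with HEK293T before any change of medium. The HEK293T +Met libraries enter both this comparison and the response of HEK293T cells, so results shared between them are not separate evidence. With all libraries 0 genes were higher (beside 5.69% of all genes) and 2 lower (4.26%, beside 4.48%), with 1 (beside 13.6%) and 5 (beside 12.5%) at an unadjusted p under 0.05, while DESeq2 called 1 higher (beside 8.85%) and 3 lower (6.38%, beside 7.95%). None passed with an absolute log2 fold change over 1 (beside 4.71% and 2.95%). The median was −0.21 beside 0.02 for all genes, with 13 positive (beside 51.2%) and 34 negative fold changes (beside 48.0%). On column sums it was 0.14 beside 0.37, since that scaling raised all genes by 0.352, and 19 of the 47 signs turned. By edgeR on column sums 3 were higher (6.38%, beside 13.1%) and 0 lower (beside 2.08%).

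PCNA, on chr20:5114953-5126626, read 315, 481 and 298 CPM in R1 +Met, beside 539, 523 and 591 CPM in HEK293T +Met. The R1 libraries were all lower, with R1 +Met replicate 2 nearest, and the log2 fold change was −0.94 ± 0.25 (SE; edgeR, adjusted p = 0.0353). CCNE1, on chr19:29811991-29824312, read 20.0, 18 and 20.1 CPM in R1 +Met, beside 23.0, 23.1 and 25.3 CPM. Its groups did not overlap either, with a log2 fold change of −0.65 ± 0.17 (SE; edgeR, adjusted p = 0.0302). Over 26 alternatives PCNA kept an adjusted p under 0.05 in 18 and CCNE1 in 16, and neither did on column sums (edgeR, adjusted p = 0.0797 and 0.299). By edgeR, leaving out a HEK293T +Met library gave 0.0719 to 0.127 for PCNA and 0.0626 to 0.129 for CCNE1, R1 +Met replicate 1 gave 0.158 and 0.110, R1 +Met replicate 3 gave 0.151 and 0.0998, and HEK293T −Met+Hcy replicate 2 gave 0.0604 and 0.0598. For CCNE1, R1 +Met replicate 2 gave 0.0541 and HEK293T −Met+Hcy replicate 3 gave 0.0520. Counted by libraries on the TMM scale, 4 genes lay higher without overlap (beside 22.2% of all genes) and 13 lower (beside 20.7%). On column sums the balance was the other way, with 12 higher (25.5%, beside 38.1%) and 3 lower (6.38%, beside 9.15%).

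With R1 −Met+Hcy replicate 3 left out, 2 were higher (4.26%, beside 17.1% of all genes) and 10 lower (21.3%, beside 15.7%). The 10 were GINS2, GINS3, GINS4, CDT1, PCNA, POLE2, PRIM1, POLD1, RFC3 and CCNE1, of which GINS3 turned its sign on column sums. GINS2 read 107, 203 and 87.1 CPM in R1 +Met, beside 231, 202 and 262 CPM in HEK293T +Met. Its value in R1 +Met replicate 2 lies within the HEK293T range. Of the 10, only CDT1, PCNA and CCNE1 lay lower without overlap both in TMM-scaled CPM and in CPM from column sums. The 2 higher genes were POLA2, at 149, 143 and 140 CPM beside 86.4, 89.9 and 86.2 CPM, and BRCA1, a factor of homologous recombination, at 157, 111 and 171 CPM beside 58.6, 88.2 and 59.8 CPM. Neither had overlapping groups, and their log2 fold changes were 0.37 and 0.74.

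In −Met+Hcy, 1 gene was higher in R1 than in HEK293T (2.13%, beside 7.20% of all genes) and 2 were lower (4.26%, beside 6.76%). With an absolute log2 fold change over 1 the counts were 1 (beside 5.29%) and 0 (beside 4.66%). Positive fold changes numbered 20 (beside 49.3%) and negative ones 27 (beside 50.4%). CCNE2 was the higher one, at 24.1, 24.2 and 67.2 CPM beside 11.7, 13.9 and 14.9 CPM. All R1 libraries lay above the HEK293T libraries, and replicate 3 made the fold change larger: 1.56 ± 0.43 with it and 0.73 ± 0.23 without (SE; edgeR, adjusted p = 0.0290 and 0.0289). CCNE1 was lower, at 20.4, 20.0 and 14.3 CPM beside 31.3, 32.4 and 32.4 CPM, with −0.84 ± 0.17 (SE; edgeR, adjusted p = 0.00676). GINS3 was lower too, at 35.1, 35.9 and 17.3 CPM beside 51.8, 50.4 and 47.4 CPM, with −0.81 ± 0.21 (SE; edgeR, adjusted p = 0.0227). Without R1 −Met+Hcy replicate 3 the fold changes were −0.77 for CCNE1 and −0.59 for GINS3.

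For these 3 genes no R1 library overlapped a HEK293T library. CCNE1 stayed under 0.05 in 25 of 26 alternatives, CCNE2 in 22 and GINS3 in 20. Leaving out HEK293T −Met+Hcy replicate 1, 2 or 3 gave adjusted p of 0.10, 0.0985 and 0.0809 for CCNE2 and of 0.0604, 0.0819 and 0.0661 for GINS3 by edgeR. On the TMM scale 4 genes lay higher without overlap (beside 13.6% of all genes) and 9 lower (beside 18.9%). Without R1 −Met+Hcy replicate 3 there were 7 higher (14.9%, beside 28.0%) and 15 lower (31.9%, beside 27.5%), and in column-sum CPM 10 higher (21.3%, beside 31.6%) and 10 lower (21.3%, beside 23.4%). By edgeR with that library left out, 6 were higher (12.8%, beside 15.7% of all genes) and 6 lower (12.8%, beside 14.6%). The higher ones were POLA2 (1.06), CCNE2, POLE (0.72), E2F1 (0.56), MCM6 (0.38) and RPA1 (0.36), and the lower ones CDT1 (−0.97), CCNE1, RFC3 (−0.71), GINS3, EXO1 (−0.57) and POLD3 (−0.43). The −Met+Hcy libraries of HEK293T enter both this comparison and the response of HEK293T cells, so the genes shared between them are not separate evidence.

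Over the 4 groups, CCNE1 ran from 18.3 ± 3.41 CPM in R1 −Met+Hcy and 19.4 ± 1.15 CPM in R1 +Met, which do not differ beyond their spread, through 23.8 ± 1.30 CPM in HEK293T +Met to 32.1 ± 0.612 CPM in HEK293T −Met+Hcy (SD, n = 3). CCNE2 ran from 13.5 ± 1.61 CPM in HEK293T −Met+Hcy to 26.8 ± 2.16 in HEK293T +Met, 28.7 ± 8.60 in R1 +Met and 38.5 ± 24.9 in R1 −Met+Hcy, and the last 3 overlap. CDK2 was at 94.1 ± 9.08 and 96.0 ± 3.42 CPM in HEK293T cells in +Met and −Met+Hcy, and at 122 ± 9.18 and 97.7 ± 25.7 CPM in R1 cells. E2F1 was at 61.4 ± 1.91 and 54.8 ± 11.1 CPM in HEK293T cells and at 84.1 ± 11.9 and 65.7 ± 36.2 CPM in R1 cells. In R1 −Met+Hcy, replicates 1, 2 and 3 read 118, 106 and 68.9 CPM for CDK2 and 81.8, 91.0 and 24.2 CPM for E2F1. On TMM-scaled CPM the +Met groups of the lines overlapped for both genes. CDK2 was at 105, 104 and 125 in HEK293T +Met and 104, 126 and 108 in R1 +Met. E2F1 was at 74.0, 71.9 and 71.5 in HEK293T +Met and 87.8, 68.8 and 76.1 in R1 +Met.

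Another 69 genes of replication, none of them among the 47, were read in the same way. In HEK293T cells 1 rose (1.45%, beside 4.25% of all genes) and 3 fell (4.35%, beside 2.78%) with all libraries. Without R1 −Met+Hcy replicate 3, 7 rose (10.1%, beside 15.2%) and 13 fell (18.8%, beside 12.5%), with a median of −0.15 beside 0.03 for all genes. TIMELESS, of the fork protection complex, went from 154 ± 26.1 to 86.8 ± 12.1 CPM (SD, n = 3; log2 fold change −1.12, edgeR, adjusted p = 0.0104). RRM2, the inducible subunit of ribonucleotide reductase, went from 221 ± 12.1 to 150 ± 3.74 CPM (−0.85, adjusted p = 0.0184 by edgeR), and E2F5, a repressive E2F, had −1.28 (adjusted p = 0.0301 by edgeR). RAD17, which loads the 9-1-1 checkpoint clamp, rose from 49.6 ± 2.90 to 113 ± 3.22 CPM (0.90, adjusted p = 0.0473 by edgeR). All 5 genes of nucleotide supply had negative fold changes, between −0.85 and −0.12, and of the 10 genes of the ATR and CHK1 checkpoint 7 were positive, where 47.5% of all genes were negative and 51.9% positive. In R1 cells 0 of the 69 passed by edgeR in either fit, with 4 higher (beside 5.68% of all genes) and 0 lower (beside 2.11%) at an unadjusted p under 0.05 from all libraries.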

How the data were processed

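Per the submitters' processing notes, reads were quantified with kallisto 0.48.0 and the build was GRCh38. The authors deposited estimated counts, summed per Ensembl gene and turned into whole numbers. Entries without a symbol hold 0.346% to 0.402% of a library's counts. Entries with a summed count under 10 were left out, which kept 17162.

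Counts were tested in R 4.3.3 with edgeR 4.0.16 (TMM, quasi-likelihood, 1 mean for each of 4 groups, 8 residual degrees of freedom) and Benjamini-Hochberg adjustment over all genes tested. A gene passed at an adjusted p under 0.05. CPM used column sums, and length and GC content came from the Ensembl canonical transcripts of GENCODE. Alternatives were DESeq2 1.42.0, RLE and column-sum scaling, other filters, robust dispersion, GC and length offsets, the replicate number as a block, 1 entry per identical copy, and each library left out. The 3 combinations with R1 −Met+Hcy replicate 3 left out (GC and length offsets, DESeq2, block) were added after seeing the data.

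The 47 genes, the 69 others and the tests were chosen with earlier results of these data known. Library values are given for the E2F and cyclin E genes, for up to 5 genes passing in each comparison and direction, or for the 3 with the lowest p. Others were named after their values were seen. Neither separate cultures nor batches are stated, so p-values measure the spread between these libraries. The procedure was tested on simulated data for the HEK293T comparison with 17004 genes. Of 100 genes changed by 1.5 on the log2 scale 99 were recovered, and 59 of 100 changed by 0.8. Of the unchanged genes 12 were called. The simulated spread was estimated with R1 −Met+Hcy replicate 3 left out (common dispersion 0.0349, beside 0.109 with it). The recovery therefore does not hold for the wider spread of all 12 libraries. Libraries of MB468 and R8 were not analysed here. Of the 47 genes, 15 overlap another counted gene, 11 of them on the opposite strand, and the strand setting is not given in the sources used here.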

Additional observations from a re-analysis of the deposited data

How the results depend on the processing

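Counts are of the 47 genes passing in each comparison, higher then lower. In HEK293T cells (0 and 1, median −0.211) column sums gave 4 and 0 with a median of 0.083, DESeq2 on 12 libraries 2 and 4, DESeq2 on the 6 libraries of the comparison 3 and 16, edgeR on those 6 libraries 3 and 15, and the GC and length trend removed 1 and 11 with a median of −0.287. No filter, robust dispersion and a fold threshold of 1 each gave 0 lower. With R1 −Met+Hcy replicate 3 left out, the GC and length trend removed gave 3 and 21 with a median of −0.290, DESeq2 3 and 14, and the block 3 and 8. In R1 cells (0 and 0, median 0.037) these 3 fits gave medians of −0.077, −0.080 and −0.070. For the difference of responses (0 and 0, median 0.087) the GC and length trend removed gave 1 higher, and 5 higher with that library left out, where DESeq2 gave 3 higher, and column sums gave a median of −0.275. In +Met (0 and 2, median −0.211) column sums gave 3 and 0 with a median of 0.143, DESeq2 on 12 libraries 1 and 3, DESeq2 on 6 libraries 2 and 9, edgeR on 6 libraries 1 and 8, the GC and length trend removed 1 and 8, and a fold threshold of 1 gave 0 lower. With R1 −Met+Hcy replicate 3 left out, the trend removed gave 3 and 15, DESeq2 3 and 12, and the block 1 and 9. In −Met+Hcy (1 and 2, median −0.043) column sums gave 1 lower, DESeq2 on 12 libraries 2 and 5, DESeq2 on 6 libraries 1 lower, edgeR on 6 libraries 0 and 0, the trend removed 7 and 6, and a fold threshold of 1 gave 0 lower. With R1 −Met+Hcy replicate 3 left out, the trend removed gave 8 and 10, DESeq2 6 and 9 with a median of −0.128, and the block 3 and 4 with a median of −0.085. The cause of these changes was not tested.

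The shares of all genes called moved with the fit as well, again higher then lower. In HEK293T cells they were 4.25% and 2.78% with all libraries, 10.4% and 1.24% on column sums, 7.52% and 5.52% by DESeq2 on 12 libraries, 17.6% and 17.2% by DESeq2 and 18.6% and 15.5% by edgeR on 6, and 10.5% and 9.67% with the trend removed. With R1 −Met+Hcy replicate 3 left out they were 19.8% and 18.6% with the trend removed, 16.1% and 15.1% by DESeq2, and 12.2% and 9.47% with the block. For the difference of responses they were 0.725% and 0.984% with the trend removed, and 3.98% and 4.72% with that library left out too. In +Met they were 8.85% and 7.95% by DESeq2 on 12 libraries, 16.6% and 16.5% by DESeq2 and 16.7% and 13.4% by edgeR on 6, and 11.2% and 10.1% with the trend removed, and with that library left out 20.4% and 19.1%, 18.1% and 18%, and 14.3% and 12.2% in the same order as above. In −Met+Hcy they were 7.21% and 5.70% on column sums, 10.6% and 10.1% by DESeq2 on 12 libraries, 6.35% and 5.99% by DESeq2 and 1.67% and 1.34% by edgeR on 6, and 16.8% and 13.2% with the trend removed, and with that library left out 19.9% and 18.9%, 16.9% and 16.6%, and 12.0% and 10.4%.

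The same replicate number does not pair the libraries: over 18 pairs the correlation of deviations ran from −0.718 to 0.595, and 6 exceeded 0.1. With the replicate block the counts were 0 lower in HEK293T cells, 0 lower in +Met with a median of −0.180, and a median of −0.087 in −Met+Hcy.

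Leaving out each of the 12 libraries in turn gave 0 to 3 higher, 0 to 10 lower and medians of −0.280 to −0.171 in HEK293T cells. In R1 cells 0 passed and the medians ran from −0.069 to 0.038, and for the difference of responses 0 passed and they ran from 0.026 to 0.124. In +Met the ranges were 0 to 2 higher, 0 to 10 lower and −0.218 to −0.160, and in −Met+Hcy 0 to 6 higher, 1 to 6 lower and −0.120 to −0.009. Where a group was left with 2 libraries, the spread came from all groups. For the 12 pairs of gene and comparison that passed, or had the 3 lowest p where none did, 260 fits kept direction and side of the threshold, 43 kept direction only, 3 came to pass and 0 turned. Over all 47 genes, 14 turned their sign in at least 1 fit in HEK293T cells (CDK2 among 8 on column sums), 33 in R1 cells, 29 for the difference, 27 in +Met and 21 in −Met+Hcy, and 0 of these fits passed. With TTTGGCGC and TTTCCCGC alone, 44.7% of the promoters of the 38 genes and 2.27% of all held a word.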
